A study of Homo sapiens with 18 samples.

Results

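The mitochondrial ribosomal protein genes described here are the genes of the deposited count table whose symbol is MRPL or MRPS followed by a number and at most 1 of the letters A to C. The rule took 78 of the 39496 genes, 49 named MRPL and 29 named MRPS, and left out their pseudogenes. Their mRNA was sequenced in T24 and UM-UC-3, established lines of human bladder transitional cell carcinoma that the labels give as wild type, with no engineered allele. Each line received siNC, a control siRNA, or either siACAT1-1 or siACAT1-2, both directed at ACAT1, which made 6 groups of 3 libraries. ACAT1 is a mitochondrial thiolase of ketone body and isoleucine breakdown, and the design asks what its loss changes in each line. T24 cells were grown in RPMI-1640 and UM-UC-3 cells in MEM, so that cell line and medium cannot be told apart. All 18 libraries come from transient transfections, and the labels number them as biological replicates without saying how the cultures were kept apart, so that p-values measure the spread between these libraries.

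The mitochondrial ribosome sits in the matrix and translates the mRNAs of the mitochondrial genome, which code for core subunits of the respiratory chain and the ATP synthase. Its rRNAs are transcribed from mitochondrial DNA, while every one of its proteins is encoded in the nucleus, made in the cytosol and imported. Some of these proteins have a bacterial homologue and others were added in the mitochondrial lineage, and their genes lie scattered over the chromosomes.

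Of the 78 genes, 51 encode proteins of the large subunit and 26 of the small subunit. The names do not follow the subunits throughout, since the MRPS30 and MRPS18A proteins sit in the large subunit. MRPS36, named as a ribosomal protein, is now known as a component of the 2-oxoglutarate dehydrogenase complex and was counted in neither subunit. A bacterial homologue was counted for 46, and 29 were counted as specific to mitochondria. MRPS18A, MRPS18B and MRPS18C are 3 paralogues of 1 bacterial protein, of which MRPS18C was counted among the 46.

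The promoters of these genes were read from RefSeq (GRCh38.p14), from 250 bases before to 50 bases after each transcription start, and searched on both strands for 4 short motifs. 85 promoters of 69 of the genes were matched, and MRPL2, MRPL10, MRPL13, MRPL15, MRPL21, MRPL23, MRPL35, MRPS28 and MRPS36 were not. The ETS motif CCGGAAG was in 38.8% of the 85 promoters and in 10.3% of all 35116 promoters. The YY1 motif AAGATGGC was in 27.1% against 2.89%, the NRF1 motif GCGCATGC in 7.06% against 3.05%, and the E-box CACGTG in 10.6% against 7.26%. No motif contains another, and the YY1 letters hold the ATG of a start codon. With the 250 bases before the start alone, the ETS share was 31.8% against 8.52% and the YY1 share 8.24% against 1.36%, so most YY1 matches lay in the first bases after the start. At least 1 of the 4 motifs was in 61.2% of the promoters and in 20.7% of all promoters. The GC content does not set them apart by much (median 60.3% against 58.7%).

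**Figure D1:**
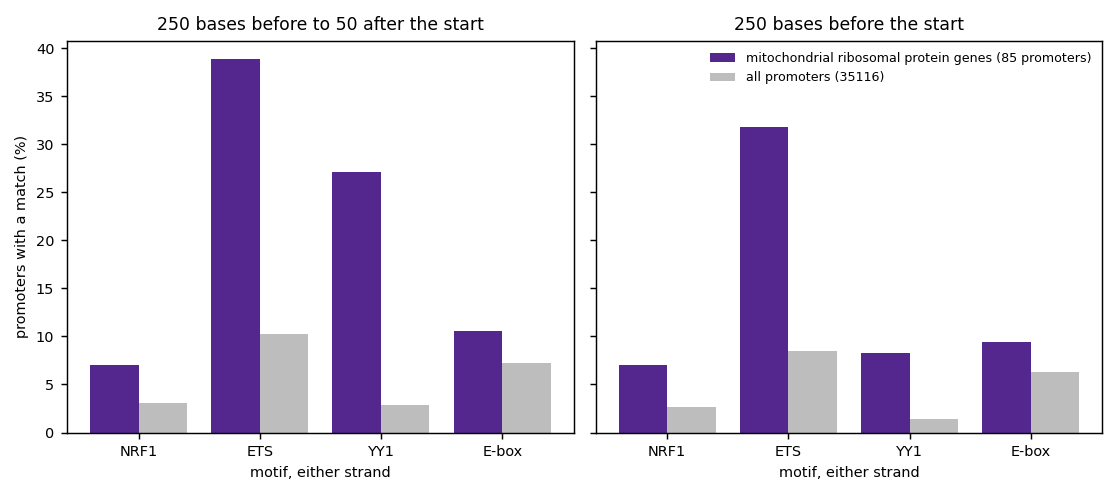
Share of promoters (%, vertical axis) that hold each of 4 motifs, for the 85 promoters of mitochondrial ribosomal protein genes (dark bars) and all 35116 RefSeq promoters (grey bars). The left panel takes the whole window and the right panel the 250 bases before the start. The ETS share stays near 3 to 4 times that of all promoters in both panels, and the YY1 share drops from 27.1% to 8.24% on the right.

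The sequences below belong to genes that the comparisons turn on, and each shows 30 bases on the strand of the gene with the motif in capitals. MRPL51, at chr12:6493356-6493385 (minus strand), holds 2 ETS matches on opposite strands within 30 bases, pointing away from each other. MRPS34, the most abundant of the genes, holds 3 ETS matches, 2 of them at chr16:1773141-1773170 (minus strand). The ETS match of MRPL38 is at chr17:75905075-75905104 (minus strand) and that of MRPL48 at chr11:73787799-73787828 (plus strand). MRPL52 has 2 YY1 matches, 1 of them at chr14:22829812-22829841 (plus strand), and MRPL42 has 1 at chr12:93467511-93467540 (plus strand) just after the start, in a window that begins before it.
MRPL51 ETS: aaaaCTTCCGGcaggcggaCCGGAAGcact
MRPS34 ETS: ccggcctCTTCCGGtgaCTTCCGGccggac
MRPL38 ETS: gtccaacgggcaCTTCCGGagccgggcgtc
MRPL48 ETS: gaatttcagaagCTTCCGGaactaaaatga
MRPL52 YY1: aacccagattcAAGATGGCgacttcctgct
MRPL42 YY1: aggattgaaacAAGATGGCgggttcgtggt

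The paralogues MRPS18A, MRPS18B and MRPS18C are shown because they share an ancestor and differ in their motifs. MRPS18A holds ETS and YY1 matches, MRPS18B NRF1 and YY1, and MRPS18C ETS, E-box and NRF1. The ETS match of MRPS18A is at chr6:43687805-43687834 (minus strand), the NRF1 match of MRPS18B at chr6:30617806-30617835 (plus strand), and that of MRPS18C at chr4:83455911-83455940 (plus strand).
MRPS18A ETS: gggcgctacgttCCGGAAGcggaaatggac
MRPS18B NRF1: agtttcctgaaGCATGCGCagttgcctttc
MRPS18C NRF1: agaaaggtgctGCGCATGCgtattgaaaaa
A match is a description of letters and not a binding site. Several genes named below, MRPL1, MRPL4, MRPL19, MRPL57, MRPS6 and MRPS35 among them, held none of the 4 motifs in their windows.

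The libraries had between 25163490 and 34417230 reads counted on genes. ACAT1 itself was at 44.1 to 47.4 RPKM (deposited read counts scaled to exon length and library size) in UM-UC-3 cells with siNC, at 2.25 to 3.59 after siACAT1-1 and at 1.83 to 2.79 after siACAT1-2. In T24 cells it was at 14.6 to 17.1 with siNC, 1.17 to 1.46 with siACAT1-1 and 0.671 to 0.916 with siACAT1-2. The epithelial keratins KRT8 and KRT18 were present in every library of both lines. Of the 6 epithelial markers listed, however, 3 were under 1 RPKM in every UM-UC-3 control library and 1 in every T24 control library. Of the 7 urothelial markers found in the table, 7 were under 1 RPKM in every UM-UC-3 control library and 5 in every T24 control library. Of 6 leukocyte markers, 5 were under 1 RPKM in every library of each group and the exception, CD68, is a lysosomal protein. All 4 endothelial markers were under 1 RPKM. The 3 T24 libraries with replicate number 2 stood apart. KRT8 was at 117 RPKM in the siNC library of that number against 311 and 324 in the other two, and CD68 at 121 against 15.7 and 16.3, and the siACAT1-1 and siACAT1-2 libraries had the same order. CD68 was at 126 to 216 RPKM in UM-UC-3 cells. The counts and medians of the contrasts that use the T24 libraries of number 2 are given with and without them, apart from the median between the control lines. This alternative was chosen after seeing the data.

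All 78 genes passed the filter on low counts and were tested among 20144 genes. Over the 18 libraries their mean level had a median of 16.2 RPKM, against 2.06 over all genes tested, and 65 of the 78 lay between 5 and 50 RPKM. The lowest count of any of them in any library was 56. The highest mean belonged to MRPS34, a small-subunit protein specific to mitochondria, at 126 RPKM. MRPL51 followed at 81.4 and MRPL47 at 73.1. The lowest were MRPL42 at 1.69, MRPL55 at 2.02 and MRPL23, at the exit of the peptide tunnel, at 2.34. From lowest to highest the means spanned 74.7-fold on the RPKM scale, in which exon length is a divisor. The span is therefore not one of transcript numbers alone. The proteins are needed in equal numbers, apart from MRPL12, which is present in several copies. Exon length in the table ran from 959 to 16393 bases. Longer genes tended to have lower RPKM (Spearman rho -0.376 across the 78 genes, which are not independent replicates). RPKM divides the count by this same length, so a negative rho is partly built into the scale. MRPL42 is the longest of them by exon length, at 16393 bases, and it is the lowest on this scale only. Its mean count was 815, against 112 for MRPL55, 204 for MRPL23 and 4078.5 for MRPS34.

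Median levels were 14.7 RPKM for the large subunit and 20.1 for the small subunit, 16.0 for genes with a bacterial homologue and 15.6 for those specific to mitochondria. The order of the genes was much the same in all groups, with Spearman rho across the 78 genes of at least 0.871 between any pair of groups and 0.884 between both controls. MRPS36 was low in every group, at 2.96, 2.85 and 2.73 RPKM in UM-UC-3 and 3.46, 4.96 and 4.22 in T24 cells with siNC. MRPS30 was at 4.68, 4.70 and 6.07 and at 4.94, 5.79 and 4.17 in the same libraries, so the ranges of both lines overlapped. MRPL47 was at 83.8, 89.8 and 67.9 RPKM in UM-UC-3 and at 63.4, 84.1 and 52.8 in T24 controls, again with overlap. MRPL23 was at 3.16, 2.22 and 2.87 and at 2.23, 1.65 and 2.06, and MRPL55 at 1.50, 1.98 and 1.68 and at 2.53, 2.90 and 2.84. Of these genes, MRPS36 and MRPL55 had control ranges that did not overlap, and neither passed the test between the lines (edgeR adjusted p of 0.062 for MRPL55).

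**Figure D2:**
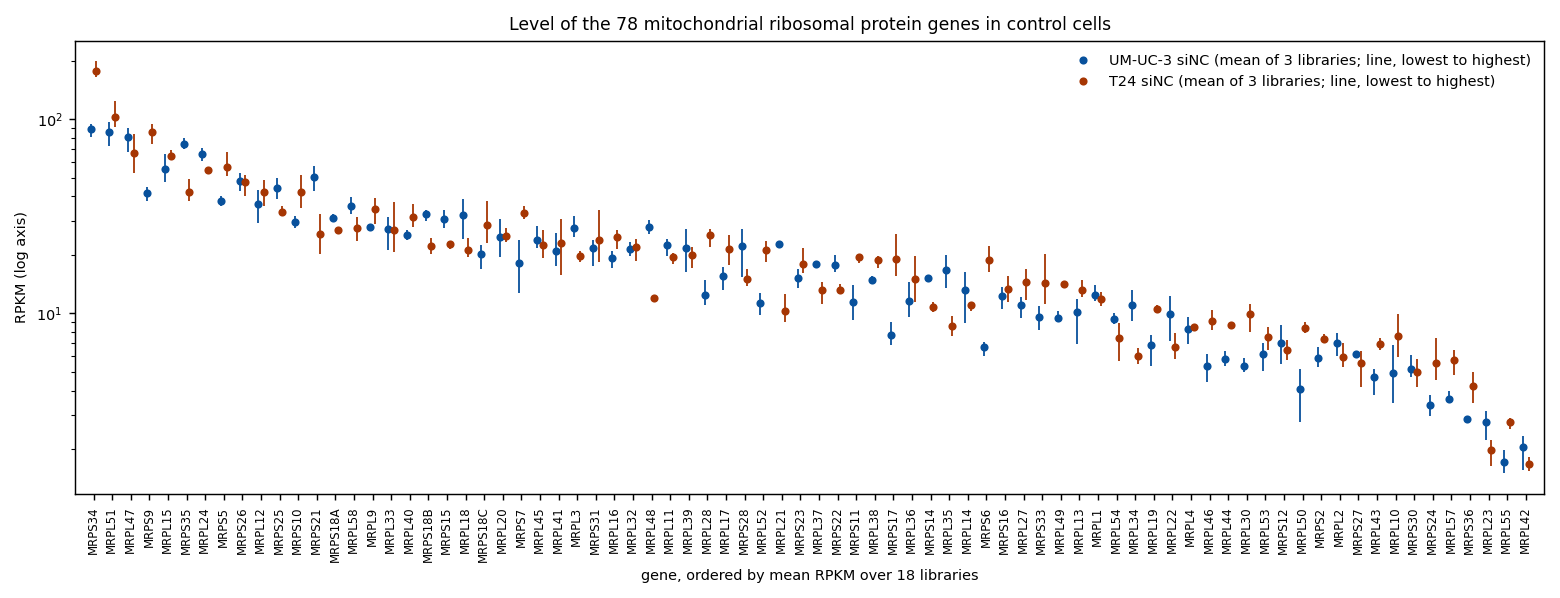
Level of the 78 genes in the siNC libraries (RPKM, log axis), ordered from left to right by their mean over all 18 libraries. Points are means of 3 libraries, blue for UM-UC-3 and orange-brown for T24, and lines run from the lowest to the highest library. MRPS34 leads and MRPL42 is last, and single genes such as MRPL48 and MRPS6 have lines that lie far apart between both cell lines.

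The summed level of the 78 genes was used to look at the set as a whole. In UM-UC-3 cells it was 1727, 1795 and 1516 RPKM with siNC, 1470.2, 1656 and 1510.0 with siACAT1-1, and 1649, 1715 and 1532 with siACAT1-2. In T24 cells it was 1809, 1949 and 1699.8 with siNC, 1604, 1800.2 and 1665 with siACAT1-1, and 1992, 1893 and 1699 with siACAT1-2. The ranges of all groups of a line overlapped, but within replicate numbers the sum with siACAT1-1 was below siNC in 6 of 6 pairs (85.1% to 99.6% of siNC), and in 4 of 6 pairs when summed as TMM-scaled CPM. With siACAT1-2 it was below siNC in 4 of 6 pairs on either scale. No test was made on the sums. The mean sums with siACAT1-1 were 92.0% and 92.9% of siNC (UM-UC-3 first, then T24), and those with siACAT1-2 were 97.2% and 102%. The SD of the sums of the siNC libraries was 8.68% and 6.87% of their mean. Without the T24 libraries of number 2, the T24 means were 93.2% and 105% of siNC. In bulk RNA, fewer cells with a transcript and less transcript per cell cannot be told apart.

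The largest differences among the 78 genes were between the siNC controls of both lines. In UM-UC-3 siNC against T24 siNC, 34 of the 78 genes passed an adjusted p under 0.05 (edgeR quasi-likelihood test, Benjamini-Hochberg over all genes tested; DESeq2 called 35), 15 higher and 19 lower in UM-UC-3. This share of 43.6% is near the background, since edgeR called 44.3% of all genes tested and DESeq2 38.5%. The median log2 fold change was -0.085 (0.030 over all genes tested), and single genes ran from -1.45 to 1.27. Leaving out replicate 2 of every T24 group, 29 passed. No share over all genes tested was computed for that fit, so this count cannot be set against a background. In the large subunit 8 genes were higher and 10 lower of 51, and in the small subunit 7 were higher and 9 lower of 26.

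MRPL48, a large-subunit protein specific to mitochondria, had the smallest p. It was at 28.0, 30.2 and 25.7 RPKM in UM-UC-3 and at 12.3, 11.99 and 11.7 in T24 controls, and its log2 fold change was 1.27 (SE 0.15, edgeR adjusted p = 3.22e-06). MRPL21, with a bacterial homologue, was at 23.7, 22.4 and 22.0 against 9.04, 12.6 and 9.38 RPKM (1.19 on the log2 scale). MRPL35 was at 16.8, 19.9 and 13.4 against 8.48, 9.64 and 7.66 RPKM (1.01), and MRPS35 at 70.2, 72.8 and 79.7 against 49.4, 38.7 and 37.7 RPKM (0.86). The groups did not overlap for any of these 4 genes. All of them were higher in UM-UC-3 cells.

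Genes lower in UM-UC-3 were led by MRPS6, a small-subunit protein with a bacterial homologue. It was at 7.09, 6.94 and 6.06 RPKM in UM-UC-3 and at 22.1, 17.8 and 16.3 in T24 controls (-1.45 on the log2 scale, SE 0.22, edgeR adjusted p = 6.1e-05). MRPL28 was at 14.9, 11.3 and 11.04 against 21.9, 27.1 and 26.6 RPKM (-0.97), and MRPL30 at 4.96, 5.89 and 5.19 against 11.1, 8.04 and 10.6 RPKM (-0.85). MRPS34 was at 92.1, 94.1 and 81.2 against 198.5, 169.7 and 165.4 RPKM (-0.96). The edgeR adjusted p of the 8 genes named here, which were chosen for the smallest p, was at most 0.00078. The siACAT1 libraries of each line, which were not in this contrast, had ranges that did not overlap between the lines for any of the 8. The share of all genes tested without such overlap was not counted, so this is not particular to these genes. Of the bS18 paralogues, MRPS18B was higher in UM-UC-3 (33.9, 29.8 and 33.2 against 22.0, 24.5 and 20.3 RPKM, log2 fold change 0.58, edgeR adjusted p = 0.0020). MRPS18A and MRPS18C had 0.26 and -0.42 with edgeR adjusted p of 0.13 and 0.087.

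The position of a gene was compared with these differences. For each gene, the median log2 fold change was taken over the other tested genes with a midpoint within 1 Mb of its own, without overlapping genes and other members of the family. It correlated with the gene's own value with r = 0.63 across the 78 genes, and with r = 0.22 across 19983 tested genes (0.22 across the 10890 at or above the level of the lowest mitochondrial ribosomal protein gene). Genes share neighbours and are not independent replicates, so no test was made. Without the T24 libraries of number 2, r across the 78 genes was 0.65. Of the 78 genes, 52 had the sign of their neighbours. MRPL35, at chr2:86199355-86213794, had 1.01 and its 36 neighbours a median of 1.10. MRPL30, on the same chromosome at chr2:99181079-99197626, had -0.85 and its 15 neighbours -0.84. MRPL21, at chr11:68891276-68903835, had 1.19 and its 22 neighbours 0.86. MRPL48 lies on the same chromosome at chr11:73787316-73865133, and its 29 neighbours had a median of 0.58. MRPL28 and MRPS34 lie near the end of chromosome 16 at chr16:367384-370527 and chr16:1771890-1773155, with neighbour medians of -0.72 over 55 genes and -0.59 over 91 genes. MRPL19 went the other way, with -0.57 against 0.46 over its 10 neighbours. Gene copy number was not measured, and its part in these values was not tested.

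**Figure D3:**
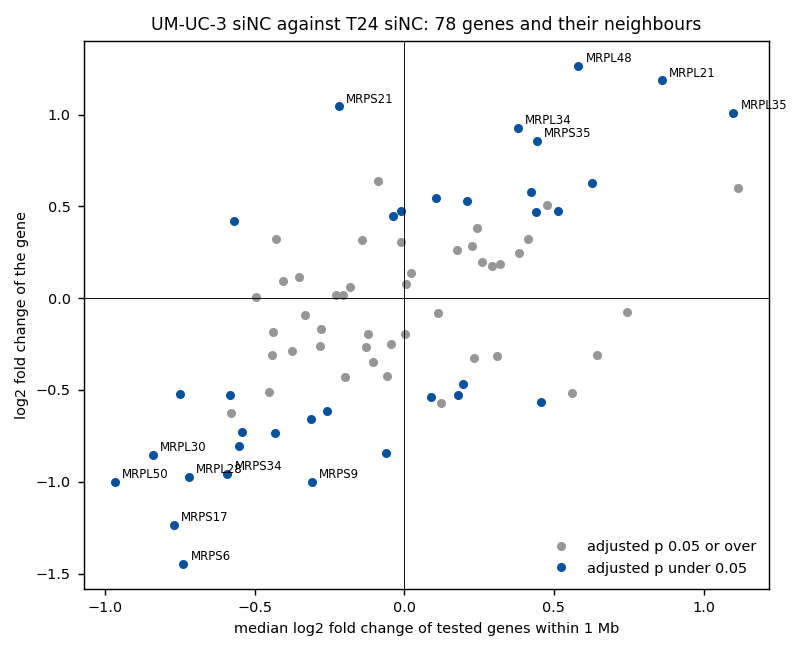
Log2 fold change of each of the 78 genes in UM-UC-3 siNC against T24 siNC (vertical axis) and the median log2 fold change of the tested genes within 1 Mb (horizontal axis). Blue points passed an edgeR adjusted p under 0.05 and grey points did not. The points lean from lower left to upper right (r = 0.63), with MRPL30, MRPL28 and MRPS6 at the lower left and MRPL35 and MRPL21 at the upper right.

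Many of the genes share a start region with another gene. A gene on the opposite strand began within 1000 bases in a head-to-head arrangement for 33 of the 78 (42.3%), against 25.8% of all genes tested. MRPL46 and MRPS11, 1 protein of each subunit, are such a pair, 34 bases apart on chromosome 15, and were chosen here after their values were seen. MRPL46 was at 5.44, 6.15 and 4.42 RPKM in UM-UC-3 and at 10.5, 8.18 and 8.64 in T24 controls, and MRPS11 at 11.05, 13.9 and 9.20 and at 20.3, 20.1 and 18.2. Both were lower in UM-UC-3, by -0.73 and -0.73 on the log2 scale (edgeR adjusted p = 0.020 and 0.0071). Over the 31 genes whose partner was tested, the values of gene and partner correlated with r = 0.56. MRPL46 and MRPS11 both enter this r, each as the partner of the other. No such r was computed over all genes tested, so it has no background.

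The ACAT1 siRNAs were each compared with siNC in each line, and both siRNAs of a line share its 3 siNC libraries. siACAT1-1 in UM-UC-3 cells left 61 of the 78 genes below siNC and 17 above, with a median log2 fold change of -0.11 (-0.0099 over all genes tested) and a range from -0.45 to 0.38. Between replicates of a group, the median log2 level of the 78 genes had a pooled SD of 0.136. In the UM-UC-3 siNC libraries 57, 60 and 13 of them lay above their group mean. The genes shifted together between libraries, so counts of lower and higher genes are not counts of independent changes. None passed an adjusted p under 0.05 in edgeR (0 of 78, against a background of 0.00993%), in DESeq2 (0) or with the replicate number as a block (0, background 3.06%). At an unadjusted p under 0.05 there were 3, all lower, against 5.34% of all genes tested. The block is named here because libraries with 1 number deviated together within each cell line. MRPL38, a large-subunit protein specific to mitochondria, was at 14.9, 15.6 and 14.1 RPKM with siNC and at 10.8, 13.1 and 10.3 with siACAT1-1, without overlap (-0.38 on the log2 scale, SE 0.16, edgeR adjusted p = 0.93). MRPL19 was at 7.71, 7.59 and 5.38 and at 5.24, 5.57 and 4.68 RPKM (-0.42). MRPL4, which lines the peptide tunnel, was at 9.59, 8.49 and 6.94 and at 6.04, 7.77 and 5.41 RPKM (-0.38), and MRPS22 at 16.8, 20.1 and 16.33 and at 14.7, 16.31 and 11.9 RPKM (-0.31). MRPL52 was higher, at 11.6, 12.8 and 9.75 and at 12.9, 16.8 and 14.7 RPKM (0.38). The groups of MRPL38, MRPS22 and MRPL52 did not overlap, and those of MRPL19 and MRPL4 did. In this comparison 9 of the 78 genes were lower and 3 higher without overlap. The share over all genes tested was not counted, and the 5 named genes were picked by their p in these same libraries.

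siACAT1-2 in UM-UC-3 cells gave a median of -0.082 (0 over all genes tested), with 60 genes lower and 18 higher. Without replicate 3 of siACAT1-2 the median was 0.0049. Of the 78 genes, 0 passed in edgeR (background 0.0546%), 0 in DESeq2 and 0 with the block (background 1.36%), and 2 had an unadjusted p under 0.05 (background 3.86%), both lower. MRPL1, whose bacterial homologue forms the L1 stalk, was at 13.98, 11.6 and 11.9 RPKM with siNC and at 8.61, 10.4 and 10.2 with siACAT1-2, without overlap (-0.40 on the log2 scale, SE 0.17). MRPL30 was at 4.96, 5.89 and 5.19 and at 3.93, 4.56 and 4.15 RPKM (-0.39), and MRPL9 at 27.0, 28.9 and 27.7 and at 25.6, 24.4 and 21.6 RPKM (-0.26). These groups did not overlap either. Among the 78 genes, 5 were lower and 3 higher without overlap, and the share over all genes tested was not counted. MRPL10, the stalk protein that carries MRPL12, was at 4.46, 3.47 and 6.91 and at 3.23, 2.97 and 4.90 RPKM (-0.46), with overlap, but lower within each of the 3 replicate numbers. MRPL38 was at 13.2, 13.9 and 11.1 RPKM with siACAT1-2 (-0.26).

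siACAT1-1 in T24 cells gave a median of -0.053 (0 over all genes tested), with 51 genes lower and 27 higher. In edgeR 0 of 78 passed (background 0.124%), in DESeq2 0, and 8 had an unadjusted p under 0.05 (background 11.5%), 7 of them lower. With the block, 5 passed, all lower (background 13.9%), and these were MRPL51, MRPL4, MRPL38, MRPL19 and MRPS34. Their share of 6.41% is below the background. Without replicate 2 of every T24 group the median was -0.065, and 1 passed without the block and 8 with it (against 18.3% of all genes tested), which include those 5.

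MRPL51, a large-subunit protein specific to mitochondria, differed most. It was at 92.1, 124.3 and 90.9 RPKM with siNC and at 36.1, 91.5 and 37.4 with siACAT1-1, and at 102.2, 104.5 and 86.6 with siACAT1-2. The 2 libraries near 37 stand well below every other T24 library, while replicate 2 of siACAT1-1 overlaps siNC. The log2 fold change was -0.90 (SE 0.29, edgeR adjusted p = 0.22), with the block -0.98 (edgeR adjusted p = 0.0022). Without replicate 2 of siACAT1-1 it was -1.45 (edgeR adjusted p = 0.0067), and without replicate 2 of every T24 group -1.33 (edgeR adjusted p = 0.011, an alternative chosen after seeing the data). In UM-UC-3 cells MRPL51 was at 89.0, 96.6 and 72.7 with siNC, 49.0, 76.9 and 63.2 with siACAT1-1 and 93.1, 92.8 and 66.2 with siACAT1-2. The siACAT1-1 libraries were lower within each replicate number in both lines. Exons of NCAPD2 on the opposite strand cover 31.3% of the exon bases of MRPL51, and a strand setting of the counting is not given in the sources used here.

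MRPL4 was at 8.59, 8.61 and 8.31 RPKM with siNC and at 5.30, 6.97 and 5.55 with siACAT1-1 in T24 cells (-0.51 on the log2 scale, SE 0.18, edgeR adjusted p = 0.27, with the block 0.014). MRPL38 was at 19.8, 17.1 and 19.8 and at 12.6, 14.3 and 15.1 RPKM (-0.43, edgeR adjusted p = 0.29, with the block 0.019). MRPL19 was at 9.997, 11.02 and 10.7 and at 8.47, 8.91 and 7.16 RPKM, and MRPS34 at 198.5, 169.7 and 165.4 and at 137.0, 134.2 and 136.7 RPKM. None of these 4 had groups that overlapped. Of the 78 genes, 6 were lower and 1 was higher without overlap, and the share over all genes tested was not counted. The 4 passed with the block on these same libraries, so the lack of overlap restates the values that picked them. MRPL57 was at 4.83, 6.48 and 5.97 and at 3.06, 5.23 and 4.53 RPKM (-0.42), and MRPL2 at 5.30, 7.04 and 5.62 and at 4.58, 5.47 and 3.65 RPKM (-0.38), both with overlap. MRPL52 was again on the high side, at 18.5, 23.5 and 21.4 and at 25.6, 23.2 and 35.2 RPKM.

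siACAT1-2 in T24 cells gave a median above 0, of 0.040 (0.010 over all genes tested), 26 genes lower and 52 higher. The direction rests on 1 library, since the median was -0.057 without replicate 1 of siACAT1-2, in which 63 of the 78 genes lay above their group mean. In edgeR 0 of 78 passed (background 0.268%), and 4 had an unadjusted p under 0.05 (background 8.44%), 3 lower and 1 higher. DESeq2 called 1, MRPS18A (background 1.27%), and the block called 4 (background 8.48%), MRPS18A and MRPL50 higher and MRPL10 and MRPL42 lower. The median was 0.055 without replicate 2 of every T24 group, where 0 passed in edgeR and 3 with the block (against 8.84% of all genes tested). MRPS18A, the bS18 paralogue of the large subunit, was at 26.4, 27.3 and 26.5 RPKM with siNC, at 31.3, 28.3 and 29.7 with siACAT1-1 and at 36.1, 40.9 and 34.7 with siACAT1-2. The 3 groups followed each other without overlap. The log2 fold change with siACAT1-2 was 0.49 (SE 0.14), with an adjusted p of 0.21 in edgeR, 0.016 in DESeq2 and 0.0069 in edgeR with the block. In UM-UC-3 cells it was at 30.2, 32.6 and 30.4 with siNC and at 30.1, 27.8 and 27.7 with siACAT1-2 (-0.16). Exons of RSPH9 on the opposite strand cover 47.0% of its exon bases.

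MRPS18B was at 24.3, 21.8 and 21.3 RPKM and MRPS18C at 29.4, 36.4 and 24.01 RPKM with siACAT1-2 in T24 cells, with log2 fold changes of 0.038 and 0.10 (SE 0.13 and 0.19). The difference between the paralogues was not tested. MRPL10 was at 5.97, 9.91 and 6.95 RPKM with siNC and at 4.35, 6.69 and 4.33 with siACAT1-2 (-0.55 on the log2 scale, SE 0.27, edgeR adjusted p = 0.61, with the block 0.0080). MRPL42 was at 1.83, 1.69 and 1.53 and at 1.21, 1.41 and 0.958 RPKM (-0.49, edgeR adjusted p = 0.48, with the block 0.012). MRPL1 was at 12.9, 11.7 and 10.9 and at 8.502, 8.95 and 9.04 RPKM (-0.41), and MRPL3 at 19.99, 20.9 and 18.3 and at 14.98, 17.6 and 14.4 RPKM (-0.32). Of these 4, MRPL10 had overlapping groups, but was lower within each replicate number. Without overlap, 6 of the 78 genes were lower and 4 higher in this comparison, and the share over all genes tested was not counted. MRPL50, which the block called and which was named after its values were seen, was at 8.30, 9.03 and 7.92 and at 11.3, 11.8 and 9.75 RPKM.

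**Figure D4:**
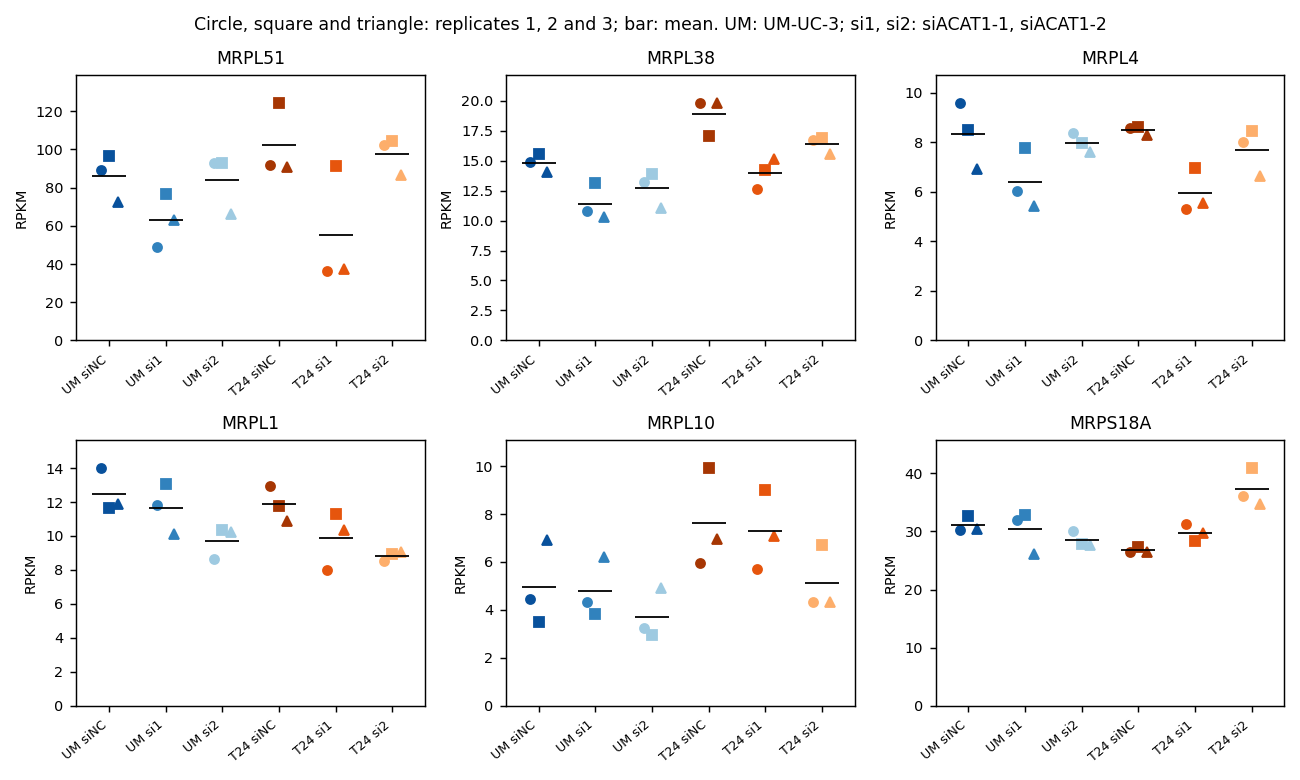
RPKM of 6 genes in each of the 18 libraries, with the axis from 0, circles, squares and triangles for replicates 1, 2 and 3, and a bar at each group mean. MRPL51 has its lowest libraries with siACAT1-1 in both lines, at 36.1 and 37.4 RPKM in 2 of 3 T24 libraries. MRPL1 and MRPL10 are lowest with siACAT1-2, and MRPS18A is highest with siACAT1-2 in T24 cells.

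The mean of the 4 comparisons, in which each siNC group enters 2 times, gave a median of -0.044 (-0.0013 over all genes tested), with 56 genes lower and 22 higher. In edgeR 0 of 78 passed (background 0.223%), in DESeq2 0, and 4 had an unadjusted p under 0.05 (background 10.9%), all lower. With the block 8 passed (background 12.4%), all lower, and they were MRPL38, MRPL10, MRPL4, MRPL51, MRPL1, MRPL19, MRPL42 and MRPS26. The large subunit held 7 of them, or 7 of its 51 genes, which is near the background. Without replicate 2 of every T24 group the median was -0.042, and 0 passed without the block and 10 with it (against 15.6% of all genes tested). MRPL38 had -0.31 (SE 0.095, edgeR adjusted p = 0.22, with the block 0.0056) and was below the siNC library of its number in 12 of 12 libraries, which share 6 siNC libraries. Its groups did not overlap with siNC in any of the 4 comparisons, but a gene on the same strand shares 37.5% of its exon bases. MRPL38 was chosen for the smallest p of the 78 genes in this contrast, so these counts restate the values that picked it. Their share over all genes tested was not counted. MRPL1 had -0.29, MRPL4 -0.28 and MRPL19 -0.24, with edgeR adjusted p of 0.29, 0.36 and 0.45. MRPL3 had -0.16 and MRPL24, at 71.2, 60.6 and 66.3 RPKM in UM-UC-3 and 53.4, 56.2 and 54.1 in T24 controls, had -0.19, and neither passed with the block.

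The genes were then compared between both lines for the same siRNA, since those comparisons share no library. For siACAT1-1 the log2 fold changes of the 78 genes correlated with r = 0.60 between UM-UC-3 and T24 cells, and for siACAT1-2 with r = 0.51. Between siACAT1-1 in one line and siACAT1-2 in the other r was 0.082 and 0.012. Over all 20144 genes tested the 4 values were 0.16, 0.15, 0.049 and 0.091. The median level of all genes tested was 2.06 RPKM against 16.2 for the 78 genes. No r was computed over genes of matched level, so the 2 sets of values are not like for like. Without the T24 libraries of number 2, the 78 genes gave 0.59, 0.55, 0.098 and 0.065. These values run across genes, which are not independent replicates, and carry no test. With siACAT1-1, 45 genes were lower in both lines, and with siACAT1-2 25 were. MRPL51, MRPL4 and MRPL38 were among the 5 lowest and MRPL52 was the highest with siACAT1-1 in both lines, and MRPL10, MRPL1 and MRPL42 were among the 5 lowest with siACAT1-2 in both.

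**Figure D5:**
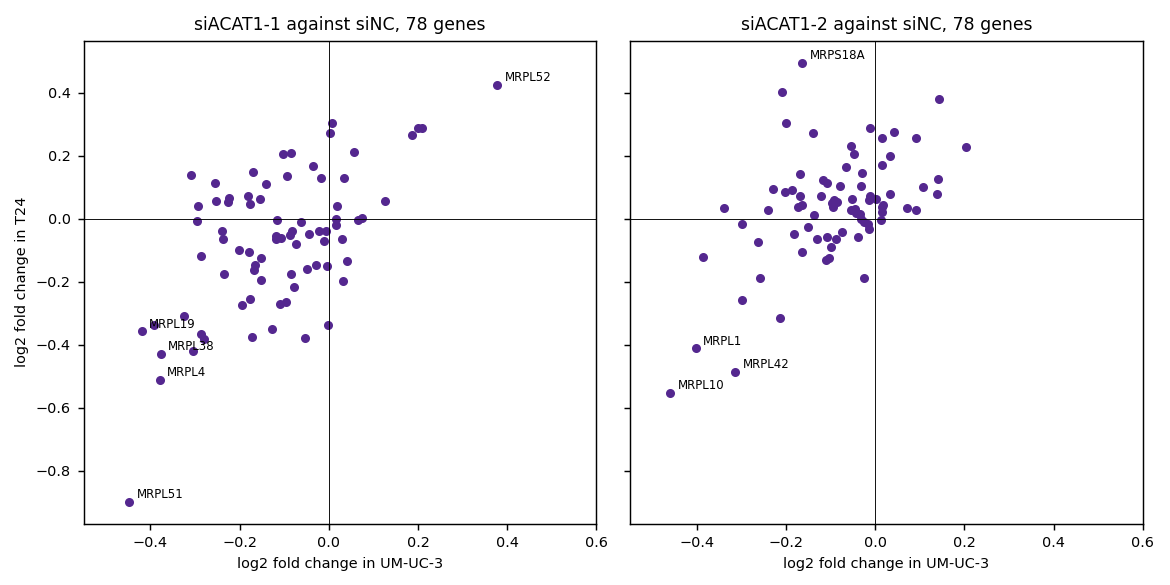
Log2 fold change against siNC of the 78 genes in UM-UC-3 (horizontal axis) and T24 cells (vertical axis), for siACAT1-1 (left) and siACAT1-2 (right). MRPL51 is at the lower left and MRPL52 at the upper right with siACAT1-1, and MRPL10, MRPL1 and MRPL42 are at the lower left with siACAT1-2 (r = 0.60 and 0.51).

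A direct contrast of siACAT1-2 minus siACAT1-1 over both lines, in which siNC cancels, gave a median of 0.080. In edgeR 0 of 78 genes passed (background 2.56%), while 13 had an unadjusted p under 0.05 (background 16.7%). DESeq2 called 1, MRPL57 (background 7.58%), and the block called 16, 10 higher and 6 lower with siACAT1-2 (background 20.6%). In UM-UC-3, MRPL57 was at 3.06, 2.58 and 3.18 RPKM with siACAT1-1 and at 4.24, 3.82 and 3.68 with siACAT1-2, and at 3.06, 5.23 and 4.53 and at 5.09, 5.79 and 6.54 in T24 cells (0.42 on the log2 scale, SE 0.13). Its adjusted p was 0.095 in edgeR, 0.030 in DESeq2 and 0.0075 in edgeR with the block. MRPL51 had 0.61 (edgeR adjusted p = 0.12, with the block 0.0016). MRPS10, a small-subunit protein with a bacterial homologue, was lower with siACAT1-2, at 35.0, 31.7 and 35.8 against 24.8, 26.4 and 29.1 RPKM in UM-UC-3 and 46.1, 57.4 and 49.9 against 31.3, 55.7 and 35.0 in T24 cells (-0.36, edgeR adjusted p = 0.12, with the block 0.0018). The T24 libraries of replicate 2 lie closer together for MRPS10 and MRPL51 than those of the other numbers. Leaving out replicate 2 of every T24 group, the median was 0.086, and 3 genes passed in edgeR and 18 with the block (against 23.2% of all genes tested).

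The knockdown effect in UM-UC-3 minus that in T24 cells was also contrasted directly. Of the 78 genes, 0 passed in edgeR (background 0%), 0 in DESeq2 and 0 with the block (background 0.104%), and 2 had an unadjusted p under 0.05 (background 2.57%). The median was -0.078, with 58 genes lower in this contrast, and was 0.014 with replicate 3 of T24 siNC left out. It was -0.053 without replicate 2 of every T24 group, where 0 passed in edgeR with or without the block. MRPS18A had -0.43 (SE 0.17), MRPS22 -0.43 (SE 0.18) and MRPS35 -0.38 (SE 0.21), each with an edgeR adjusted p of 1.0. MRPS22 in T24 cells was at 12.5, 12.8 and 14.2 RPKM with siNC, 13.7, 15.2 and 14.4 with siACAT1-1 and 14.8, 17.3 and 15.1 with siACAT1-2. MRPS35 was at 49.4, 38.7 and 37.7, at 47.6, 43.3 and 41.0 and at 59.8, 45.2 and 48.0 RPKM in the same order. A p that misses the threshold does not show that both lines responded alike.

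The other genes of the pathway were taken from lists. For the mean of the 4 comparisons, edgeR called 0 of the 5 mitoribosomal proteins with other names, 0 of 25 assembly factors, 0 of 16 translation factors, 0 of 9 genes of mitochondrial DNA expression, 0 of 9 transcription factors of mitochondrial genes and 0 of 13 protein genes of the mitochondrial genome. Over all genes tested edgeR called 0.223%. The counts at an unadjusted p under 0.05 were 1, 3, 0, 0, 1 and 0 (10.9% of all genes tested), and DESeq2 called 0, 0, 0, 0, 1 and 0. Of the 2 rRNA genes of the mitochondrial ribosome edgeR called 0 and DESeq2 1, and both had an unadjusted p under 0.05. MT-RNR2, the large rRNA, was at 2987, 2679 and 3975 RPKM with siNC, 4679.5, 3529 and 4883 with siACAT1-1 and 3445, 3755 and 5165 with siACAT1-2 in the UM-UC-3 line. In T24 cells it was at 1454, 2458 and 1774, at 2639, 3119 and 2957.5 and at 1995, 2792 and 2739.9 RPKM. Its mean log2 fold change was 0.46 (SE 0.12), with an adjusted p of 0.15 in edgeR, 0.028 in DESeq2 and 0.00020 in edgeR with the block, and MT-RNR1, the small rRNA, had 0.24 (SE 0.11, edgeR adjusted p = 0.45, with the block 0.022). MT-RNR2 had 0.53 (edgeR adjusted p = 0.044) when replicate 2 of every T24 group was left out, and MT-RNR1 0.26 (edgeR adjusted p = 0.27). The libraries were made with an mRNA kit, so that counts of rRNA depend on how much of it was carried through.

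MRM1, which methylates the large rRNA, had the lowest value among the assembly factors. In UM-UC-3 it was at 1.74, 1.64 and 0.785 RPKM with siNC, 0.725, 0.649 and 0.723 with siACAT1-1 and 0.566, 1.09 and 0.566 with siACAT1-2. In T24 it was at 1.44, 1.57 and 1.82, at 0.617, 0.893 and 0.514 and at 1.04, 2.49 and 1.24 RPKM, with overlap for siACAT1-2. Its mean log2 fold change was -0.80 (SE 0.22, edgeR adjusted p = 0.16, with the block 0.0049). It had -0.98 (edgeR adjusted p = 0.033) without replicate 2 of every T24 group. DAP3, a small-subunit protein that binds GTP, had 0.21 (edgeR adjusted p = 0.41, with the block 0.025). NRF1, the factor that binds the NRF1 motif, had -0.33 (SE 0.096, edgeR adjusted p = 0.20, with the block 0.015, in DESeq2 0.031), and without replicate 2 of every T24 group -0.33 (edgeR adjusted p = 0.11). In T24 cells NRF1 was at 3.04, 2.99 and 3.01 RPKM with siNC, 1.98, 2.35 and 2.25 with siACAT1-1 and 2.28, 1.79 and 1.99 with siACAT1-2, without overlap with siNC. In UM-UC-3 it was at 2.94, 2.83 and 2.86, at 2.71, 2.61 and 2.78 and at 2.25, 2.68 and 2.66 RPKM. Its part in the values of the ribosomal protein genes was not tested.

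Between the controls of both lines edgeR called 3 of the 5 mitoribosomal proteins with other names (all higher in UM-UC-3), 10 of 25 assembly factors, 8 of 16 translation factors, 4 of 9 genes of mitochondrial DNA expression, 5 of 9 transcription factors and 2 of 13 mitochondrial protein genes. Over all genes tested it called 44.3%, and the shares of the lists other than the last ran from 40% to 60%. PTCD3, a small-subunit protein, had 1.32 (SE 0.18), DAP3 0.46 and GADD45GIP1 0.72. MT-RNR2 had 0.81 (edgeR adjusted p = 0.0030).

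Counts of some of these genes can hold reads of others. Exons of another gene overlapped those of 40 of the 78, on the same strand in 15 and on the opposite strand in 29. Over 50% of the exon bases were shared for MRPL12 alone (68.2%). Pseudogenes of 25 of the 78 genes, 34 in all, have rows of their own in the table, and how reads that map to both were counted is not given in the sources used here.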

How the data were processed

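RNA of 18 libraries (6 groups of 3, grouped by the cell line and siRNA in their labels) was measured by stranded mRNA sequencing. Per the submitters' processing notes, reads were filtered with Trimmomatic 0.36, mapped with STAR 2.5.3 to GRCh38 and counted on exons with featureCounts (Subread 1.5.1). The authors deposited these raw counts, 25163490 to 34417230 per library, and RPKM values scaled to exon length and counted reads. Annotation release, strand setting, multi-mapping reads and the use of molecular identifiers in counting are not given in the sources used here.

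Counts were tested in edgeR 4.0.16 (R 4.3.3, TMM, filterByExpr by group, quasi-likelihood) in 1 fit of all libraries and adjusted with Benjamini-Hochberg over 20144 genes, after the script was tested on simulated data. DESeq2 1.42.0 was an alternative. RPKM gave levels. Within a line, deviations from group means correlated in all 9 same-numbered pairs (r 0.115 to 0.576 in UM-UC-3, 0.356 to 0.686 in T24). Differently numbered pairs had r from -0.545 to 0.269 in UM-UC-3, which overlaps the same-numbered range, and from -0.567 to 0.21 in T24, which does not. The numbers were taken as pairs from these data, and the block is the number within a cell line. No 2 libraries of a group were alike within counting noise (lowest chi-square over its degrees of freedom 13.0, over 18 pairs).

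Members and lists were chosen with earlier results of these data known. Named genes were the 5 smallest p values in each siRNA comparison, 8 in the mean, 8 between controls, 3 in each difference contrast, 3 highest and 3 lowest levels, the bS18 paralogues, MRPS30 and MRPS36. Other lists name at most 3 genes each by the smallest p. Exon overlaps and neighbours came from the table's coordinates.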

Additional observations from a re-analysis of the deposited data

How the results depend on the processing

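The replicate block moved the counts of genes passing an adjusted p under 0.05 in edgeR from 0 to 5 for siACAT1-1 and to 4 for siACAT1-2 in T24 cells, to 8 for the mean of the 4 comparisons and to 16 for the difference between the siRNAs, and changed no other count. No paired analysis was possible for UM-UC-3 siNC against T24 siNC because the numbers pair libraries within a cell line. DESeq2 gave 1 for siACAT1-2 in T24 cells and 1 for the difference between the siRNAs. Without the filter on low counts the counts were 1 for siACAT1-1 in T24 cells, 1 for the difference between the siRNAs and 20 in place of 34 between the control lines, and the cause was not tested. Without replicate 2 of every T24 group, a setting added after seeing the data, they were 1 for siACAT1-1 in T24 cells, 3 for the difference between the siRNAs and 29 between the control lines. With the block in the same setting they were 8 and 3 for siACAT1-1 and siACAT1-2 in T24 cells, 10 for the mean and 18 for the difference between the siRNAs. No share over all genes tested was computed for the fit without the filter, nor for the unblocked fit without replicate 2 of every T24 group.

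When 1 library at a time was left out, the count ran from 26 to 35 between the control lines, from 0 to 1 for siACAT1-1 in T24 cells (1 without replicate 2 of siACAT1-1), from 0 to 2 for the difference between the siRNAs (2 without replicate 2 of siACAT1-1 and 1 without replicate 2 of siACAT1-2 in T24 cells), and stayed at 0 in the other 5 contrasts. No share over all genes tested was computed for these fits either. The median log2 fold change of the 78 genes ran from -0.204 to -0.0427 (siACAT1-1) and from -0.164 to 0.00491 (siACAT1-2, highest without its replicate 3) in UM-UC-3 cells, and from -0.126 to -0.0321 and from -0.0567 (without replicate 1 of siACAT1-2) to 0.103 in T24 cells. It ran from -0.103 to -0.011 for the mean, from -0.248 (without T24 siNC replicate 3) to -0.0205 between the control lines, from -0.155 to 0.0143 for the difference between the lines and from 0.0117 to 0.12 for that between the siRNAs. The summed level under TMM-scaled CPM was 93.1% to 103% of siNC. Of the values of named genes under the alternatives, 1038 kept their direction and side of the threshold and 44 passed it newly.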
